A study of Danio rerio with 6 samples.

Results

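The hox genes and the caudal-type cdx genes were examined in zebrafish embryos carrying human EWS-FLI1 and in wild-type embryos. All probe sets annotated to exactly 1 gene whose symbol names a hox cluster gene or a cdx gene were taken, which gave 61 of 15502 tested probe sets, and 44 of 8793 measured genes. A RefSeq gene table holds 52 hox and cdx genes, and the 8 without such a probe set (hoxa13a, hoxb1b, hoxb13a, hoxc10a, hoxc12a, hoxc13b, hoxd12a and cdx1b) were not analysed here.

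Both groups had 3 Affymetrix arrays, and each array read RNA from a pool of 40 embryos. The first group carried Tg(HSP:EWS-FLI1), in which a heat shock promoter drives the fusion oncogene of Ewing sarcoma, and the second was the wild-type AB strain. All embryos received 30 min at 39 °C at 50% epiboly, the start of gastrulation, then 2 h at 28.5 °C. The heat shock is therefore common to both groups, and the comparison asks which hox and cdx transcripts differ between the lines after it. The share of embryos per pool that carried or expressed the transgene, the number of transgenic lines and the clutches are not stated, so p-values measure the spread between pools, and 3 arrays a group limit the precision. The level of the transgene was not analysed here. Over all probe sets, arrays correlated at 0.998 within the EWS-FLI1 group, at 0.991 to 0.994 within the control group and at 0.982 to 0.988 between the groups.

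Hox genes encode homeodomain transcription factors that give cells their position along the head-to-tail axis. They lie in clusters, and their paralogue group number follows both their order on the chromosome and the order of their expression, low numbers in the hindbrain and early, high numbers in the tail and late. Cdx proteins are homeodomain factors of the tailbud that activate hox genes of the trunk. In zebrafish the clusters hoxa, hoxb and hoxc are each present in an a and a b copy, here written hoxaa, hoxab, hoxba, hoxbb, hoxca and hoxcb, while hoxd genes are in hoxda only. Gastrulation is when the first hox genes are switched on.

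In EWS-FLI1 embryos at least 1 hox gene fell in each of the 7 clusters, and hoxc11b was the single gene that rose. The falls lay in paralogue groups 1 and 3 to 10. All 11 probe sets of groups 11 to 13 had control means within a background reference, defined below, where a fall may not have been detectable. Values are log2 RMA values, differences are EWS-FLI1 minus control, and a probe set was called at an adjusted p under 0.05 in limma, adjusted over all 15502 probe sets. Of the 61 probe sets, 24 fell (39.3%), 1 rose and 36 were not called. Among all tested probe sets 6.46% fell and 5.38% rose. The median difference was -0.34 over the 61 probe sets and 0 over all tested ones, and 55 of the 61 differences were negative. The 24 belonged to 18 of the 44 genes. In hoxab, hoxcb and hoxda only 1 gene each fell (hoxa9b, hoxc6b and hoxd4a). The calls of these genes were lost when certain single arrays were left out. In 36 of the 61 probe sets (59%) all 3 EWS-FLI1 arrays lay below all 3 control arrays, against 14.8% of all probe sets. The 36 include each of the 24 that fell, for which the call itself makes such a separation likely.

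Most falls were in probe sets with signal above background. As a background reference, the 95th percentile of 44 bacterial and tag control probe sets was 4.23, and 38.8% of all tested probe sets had a mean over the 6 arrays at or under it. Split by this mean, a choice made after the values were seen, 25 hox and cdx probe sets lay above the reference. Of these 20 fell (80%, against 8.92% of all tested probe sets above it), with a median difference of -0.66, and 5 were not called, of hoxb2a, hoxb6a, hoxd10a, cdx4 and cdx1a. Of the 25, hoxb6b, which fell, and hoxb6a passed through their control means, with EWS-FLI1 means within the reference. Of the 36 within it, 4 fell (11.1%, against 2.56% of all tested probe sets within it), both of hoxa3a, hoxb5a and 1 of hoxd4a, and hoxc11b rose. Signal near background compresses differences, so for probe sets within this level a change may not have been detectable. Where only the EWS-FLI1 mean lay within it, as for hoxb5a, hoxb6b and 1 probe set of hoxd4a, the size of the fall is not resolved.

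**Figure D1:**
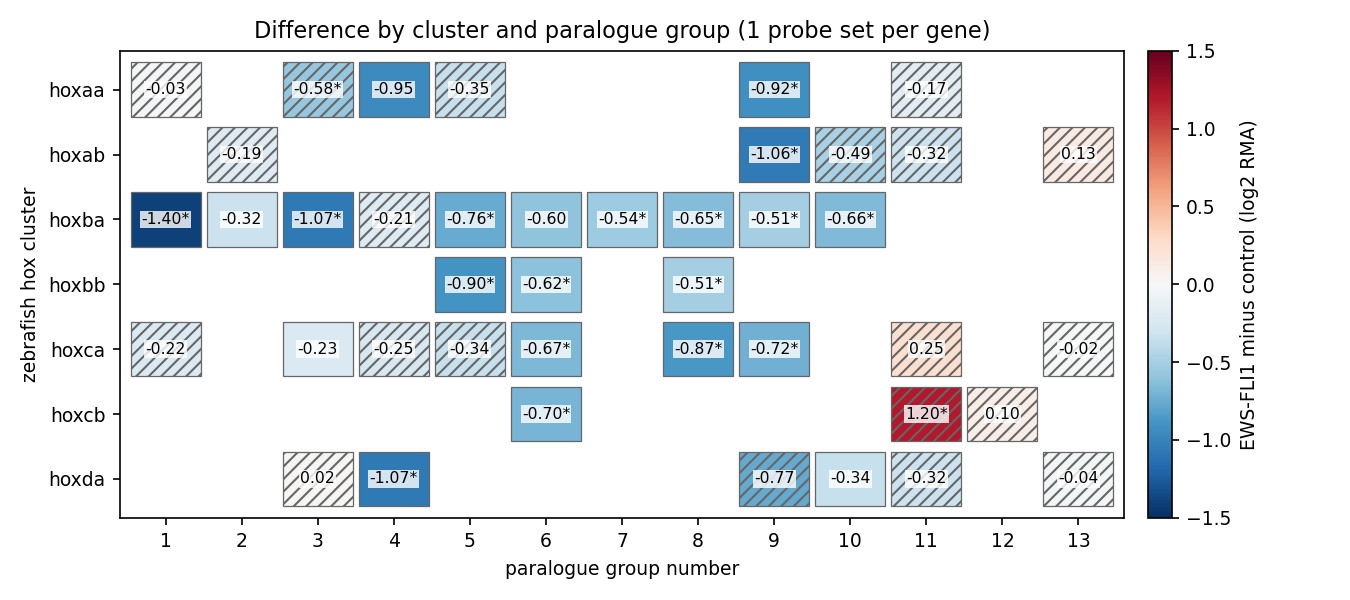
Difference between EWS-FLI1 and control means (colour and number, log2 RMA) for 1 probe set per hox gene, by cluster (rows) and paralogue group (columns). An asterisk marks a call, hatching a control mean within the background reference, and an empty cell a gene that does not exist or was not analysed. The calls below 0 lie in paralogue groups 1 and 3 to 10, from -0.51 to -1.40, and the single call above 0 is hoxc11b at 1.2.

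The largest fall was in hoxb1a, which gives the fourth rhombomere of the hindbrain its identity. It had 4.71, 5.13 and 4.99 in EWS-FLI1 arrays, against 6.41, 5.82 and 6.79 in control arrays. The arrays of the groups did not overlap, and control replicate 2 was the lowest control. This was a difference of -1.40 (SE 0.22, adjusted p = 0.00489), or 2.63-fold lower. The other group 1 genes, hoxa1a and hoxc1a, were not called (-0.03 and -0.22), and their control means did not exceed the background reference.

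In paralogue group 3, whose genes act in the posterior hindbrain and the pharyngeal arches, hoxb3a had 6.58, 7.14 and 6.68 in EWS-FLI1 arrays, against 7.96, 7.49 and 8.16 in control arrays. It fell by 1.07 (SE 0.19, adjusted p = 0.00895). Both probe sets of hoxa3a fell, with both group means at or under the background reference. The first had 3.42, 3.55 and 3.57 in EWS-FLI1 arrays, against 3.97, 3.85 and 4.45 in control arrays, a difference of -0.58 (SE 0.15, adjusted p = 0.0394). On the second the values were 2.16, 2.36 and 2.38 in EWS-FLI1 arrays, against 2.72, 2.62 and 2.87 in control arrays, with a difference of -0.44 (SE 0.10, adjusted p = 0.0266). On all of these probe sets control replicate 3 was the highest control. hoxc3a (-0.23) and both probe sets of hoxd3a (-0.14 and 0.02) were not called, nor were the 3 probe sets of the group 2 genes hoxa2b and hoxb2a, which shape the second pharyngeal arch and anterior rhombomeres (-0.19 to -0.33).

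Group 4 genes mark the boundary of hindbrain and spinal cord. Both probe sets of hoxd4a fell. One had 5.02, 5.20 and 5.31 in EWS-FLI1 arrays, against 6.04, 5.84 and 6.87 in control arrays, and the difference was -1.07 (SE 0.24, adjusted p = 0.0199). The other had 3.55, 3.80 and 3.71 in EWS-FLI1 arrays, against 4.75, 4.13 and 4.91 in control arrays, with a difference of -0.91 (SE 0.19, adjusted p = 0.0148). For both, control replicate 3 was the highest and control replicate 2 the lowest control. hoxa4a had 3.50, 3.65 and 3.65 in EWS-FLI1 arrays, against 4.48, 3.92 and 5.25 in control arrays, again without overlap. The control arrays spread over more than 1 unit, and the difference of -0.95 (SE 0.28, adjusted p = 0.0607) missed the threshold. It was called with the replicate number as a block, with a trended prior, with array weights, and without control replicate 2 (-1.26) or 3 (-0.60). hoxb4a and hoxc4a, within the background reference, were not called (-0.21 and -0.25).

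Groups 5 to 8 pattern the trunk. The copies hoxb5a and hoxb5b both fell, and hoxb5b is known to limit the number of heart precursor cells in zebrafish. hoxb5a had 3.58, 3.81 and 3.91 in EWS-FLI1 arrays, against 4.65, 4.28 and 4.64 in control arrays, a difference of -0.76 (SE 0.13, adjusted p = 0.0069). For hoxb5b the values were 4.49, 4.61 and 4.44 in EWS-FLI1 arrays, against 5.49, 5.13 and 5.63 in control arrays, with a difference of -0.90 (SE 0.13, adjusted p = 0.00326). On both, control replicate 2 was the lowest control, above every EWS-FLI1 array. hoxa5a (-0.35, adjusted p = 0.0628) and hoxc5a (-0.34, adjusted p = 0.171) were not called, and both lay within the background reference. hoxc5a, the uncalled cluster c probe set with the largest difference, had 3.68, 3.82 and 3.79 in EWS-FLI1 arrays, against 4.17, 3.79 and 4.34 in control arrays, and its groups overlapped.

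All 4 genes of group 6, which in mice mark the forelimb level, had means over all arrays above the background reference. Of them 3 fell, against 8.92% of all tested probe sets above it. hoxb6a and hoxb6b passed it only through their control means, with EWS-FLI1 means of 4.15 and 4.21 within it. hoxc6a had 5.21, 5.53 and 5.31 in EWS-FLI1 arrays, against 6.18, 5.80 and 6.09 in control arrays, a difference of -0.67 (SE 0.13, adjusted p = 0.0104). Its duplicate hoxc6b had 5.90, 6.06 and 6.12 in EWS-FLI1 arrays, against 6.56, 6.54 and 7.09 in control arrays, and differed by -0.70 (SE 0.15, adjusted p = 0.0184). These copies lie on different chromosomes, and on both the EWS-FLI1 arrays lay below every control. hoxb6b had 4.21, 4.17 and 4.25 in EWS-FLI1 arrays, against 4.87, 4.55 and 5.08 in control arrays, a difference of -0.62 (SE 0.13, adjusted p = 0.0165). Its duplicate hoxb6a had 4.10, 4.19 and 4.16 in EWS-FLI1 arrays, against 4.35, 4.49 and 5.40 in control arrays, where control replicate 3 stood apart from the other controls. Its difference was close to that of hoxb6b, at -0.60 (SE 0.24, adjusted p = 0.159), but was not called.

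Of groups 7 and 8, genes of the trunk, hoxb7a, hoxb8a, hoxb8b and hoxc8a fell. hoxb7a had 4.77, 4.66 and 4.73 in EWS-FLI1 arrays, against 5.34, 5.29 and 5.14 in control arrays, a difference of -0.54 (SE 0.09, adjusted p = 0.00584). Both groups were tight on this probe set. hoxb8a was read by 3 probe sets, of which 2 fell. The first had 4.86, 5.0 and 5.09 in EWS-FLI1 arrays, against 5.80, 5.54 and 5.56 in control arrays, with a difference of -0.65 (SE 0.11, adjusted p = 0.00525). The second, whose name marks probes shared between transcripts, had 4.62, 4.71 and 4.56 in EWS-FLI1 arrays, against 5.32, 4.87 and 5.27 in control arrays, and differed by -0.52 (SE 0.13, adjusted p = 0.0299). Its duplicate copy hoxb8b had 4.82, 4.83 and 4.84 in EWS-FLI1 arrays, against 5.31, 5.27 and 5.45 in control arrays, with almost no spread among the EWS-FLI1 arrays. The difference of hoxb8b was -0.51 (SE 0.09, adjusted p = 0.00574). hoxc8a, a gene of thoracic identity in mice, fell on 1 of its 3 probe sets, with 8.40, 8.71 and 8.58 in EWS-FLI1 arrays, against 9.55, 9.12 and 9.63 in control arrays. That was a difference of -0.87 (SE 0.15, adjusted p = 0.00598), whereas its other probe sets, with control means within the background reference, differed by -0.13 and -0.27 and were not called.

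Group 9 genes, of the thoracic trunk in mice, fell on 6 of 7 probe sets and in 4 of 5 genes, with a median of -0.77. Of all tested probe sets 6.46% fell, and 8.92% of those with a mean above the background reference. Such a mean was found for 6 of these 7, and for 25 hox and cdx probe sets in all, of which 20 fell. In human leukaemia HOXA9 acts together with MEIS1. hoxa9a fell on both probe sets. One had 4.04, 4.48 and 4.20 in EWS-FLI1 arrays, against 5.36, 4.99 and 5.25 in control arrays, a difference of -0.96 (SE 0.14, adjusted p = 0.00309). The other had 4.54, 4.76 and 4.70 in EWS-FLI1 arrays, against 5.60, 5.20 and 5.95 in control arrays, with a difference of -0.92 (SE 0.17, adjusted p = 0.0102). Its duplicate hoxa9b had 4.07, 4.28 and 4.42 in EWS-FLI1 arrays, against 5.29, 4.64 and 6.01 in control arrays. That difference, -1.06 (SE 0.29, adjusted p = 0.0484), was larger, but the control arrays spread further (SD 0.69 against 0.38). The EWS-FLI1 arrays stayed below the lowest control on all 3 probe sets of these copies. hoxb9a also fell on both probe sets. The values were 5.97, 5.93 and 6.15 in EWS-FLI1 arrays, against 6.59, 6.30 and 6.69 in control arrays on one, a difference of -0.51 (SE 0.12, adjusted p = 0.0263). On the other they were 4.34, 4.80 and 4.64 in EWS-FLI1 arrays, against 5.37, 5.06 and 5.25 in control arrays, a difference of -0.63 (SE 0.13, adjusted p = 0.0173). hoxc9a, which in the mouse spinal cord sets thoracic motor neuron identity, had 5.15, 5.36 and 5.49 in EWS-FLI1 arrays, against 6.07, 5.87 and 6.21 in control arrays, a difference of -0.72 (SE 0.12, adjusted p = 0.00645). hoxd9a, the uncalled member of the group, had 2.97, 3.26 and 3.41 in EWS-FLI1 arrays, against 3.73, 3.15 and 5.07 in control arrays. Control replicate 3 stood apart from the other controls and control replicate 2 lay among the EWS-FLI1 arrays, and the difference of -0.77 (SE 0.40, adjusted p = 0.296) was not called.

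In group 10, hoxb10a, which has no counterpart in mammals, fell on 2 of its 3 probe sets. One had 5.27, 5.68 and 5.63 in EWS-FLI1 arrays, against 6.47, 5.90 and 6.46 in control arrays, a difference of -0.75 (SE 0.17, adjusted p = 0.0246). The other had 5.90, 6.14 and 6.0 in EWS-FLI1 arrays, against 6.81, 6.25 and 6.96 in control arrays, a difference of -0.66 (SE 0.17, adjusted p = 0.0404). Both lay above the background reference in all arrays. The probe sets of hoxa10b (-0.01 and -0.49) and hoxd10a (-0.34, adjusted p = 0.353) were not called.

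Paralogue groups 11 to 13, which pattern the tail and fins and are switched on last, held no gene that fell. All 11 of their probe sets had control means within the background reference. Of these, 1 had an unadjusted p under 0.05 with a lower EWS-FLI1 mean and 2 with a higher one. Among all 15502 tested probe sets these counts were 2037 and 1762. hoxc11b, a group 11 gene, rose on its 1 probe set, whose gene name rests on the platform annotation and was not checked by sequence. It had 4.82, 4.62 and 4.93 in EWS-FLI1 arrays, against 3.70, 3.61 and 3.45 in control arrays, so that all EWS-FLI1 arrays were above the background reference and all control arrays below it. The difference was 1.2 (SE 0.11, adjusted p = 3.2e-04), or 2.3-fold higher signal as measured. Since the control level is not resolved, the signal is stated as at least 1.48-fold higher, the EWS-FLI1 mean against the background reference. Groups did not overlap in this direction at 14.1% of all probe sets and at 3 of the 61 members, hoxc11b, hoxa13b (0.13) and 1 probe set of hoxc11a.

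No measured neighbour of hoxc11b in its cluster was called higher. hoxc12b, next to it in hoxcb, differed by 0.10 (SE 0.11, adjusted p = 0.655), and hoxc6b, on its other side, fell as given above. Of the 6 measured genes that flank hoxcb, none was called and none had an unadjusted p under 0.05, with differences from -0.03 to 0.22. They lay 2 to 11 genes from the cluster. Of them, calcoco1b and lrp1aa were within the background reference in both groups. hoxc12b was too, so a change in these genes may not have been detectable. The duplicate copy hoxc11a had 3.40, 3.27 and 3.44 in EWS-FLI1 arrays, against 3.02, 3.18 and 3.17 in control arrays on its brightest probe set, and its difference of 0.25 (SE 0.09, adjusted p = 0.13) was not called. Its other probe sets differed by 0.16 and -0.06. Both group means of hoxc11a lay under the background reference, so the size of the difference between the copies is not resolved.

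Posterior HOXD genes are abundant in human Ewing sarcoma. In the embryos hoxd10a (-0.34, SE 0.20), hoxd11a (-0.32, SE 0.16) and hoxd13a (-0.04, SE 0.12) were not called, and the means of hoxd11a and hoxd13a did not exceed the background reference in either group.

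**Figure D2:**
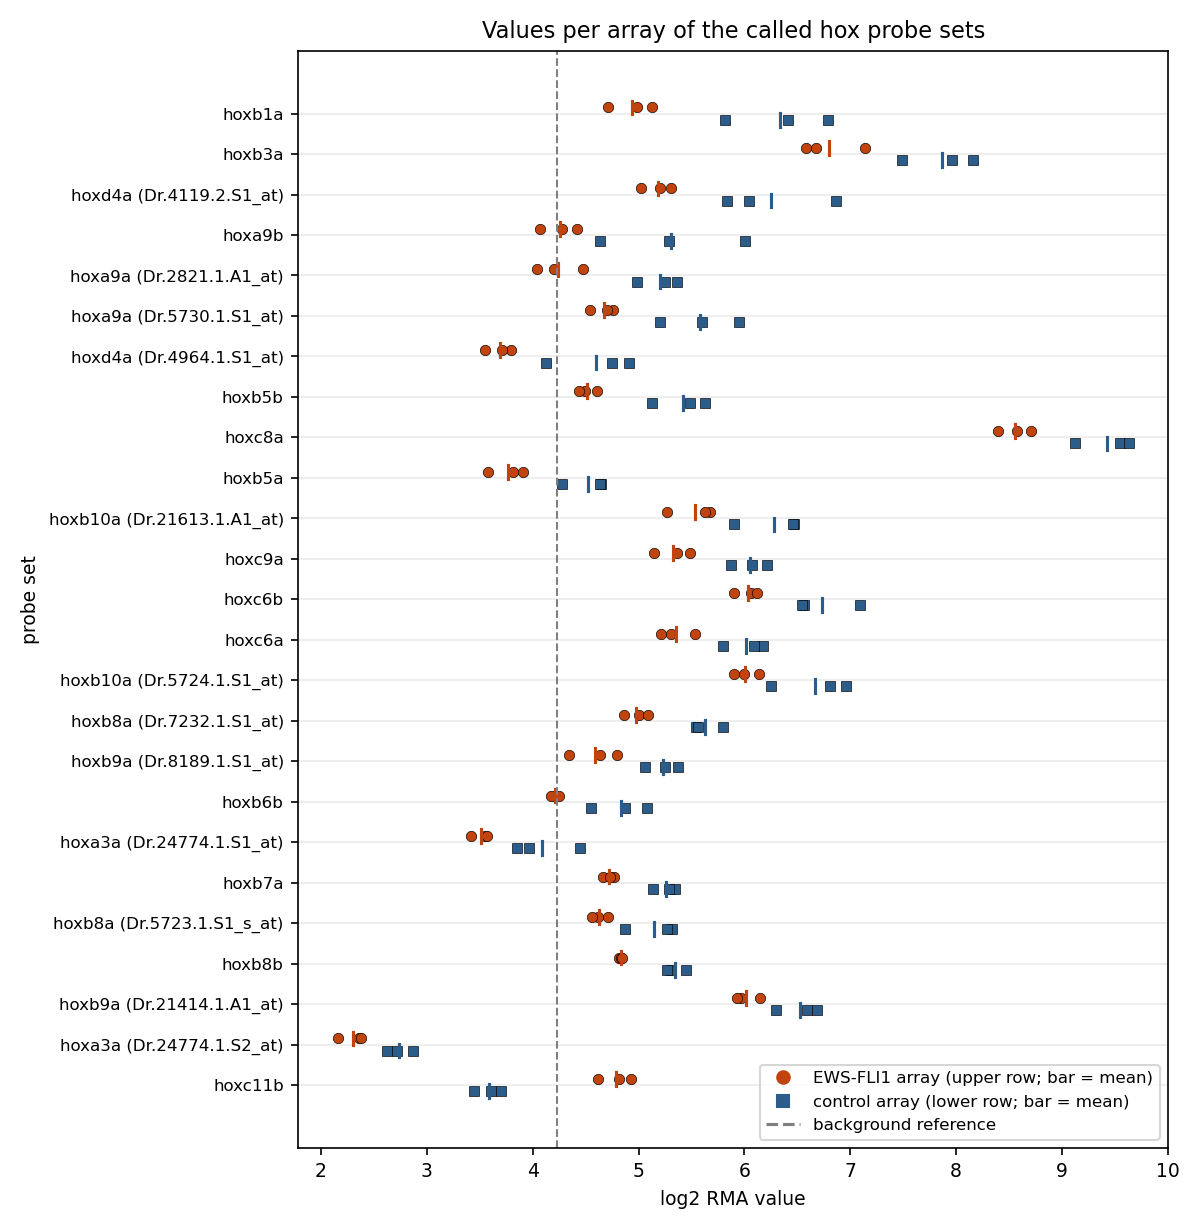
Log2 RMA value (x axis) of each array for the 25 called hox probe sets, ordered by their difference, with EWS-FLI1 arrays as circles above control arrays as squares and short bars at the means. The groups are apart on every probe set shown, which the call itself makes likely, and the dashed line at 4.23 marks the background reference. Only hoxc11b has its EWS-FLI1 arrays to the right of its controls.

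The 2 cdx genes measured were not called. cdx4, an activator of trunk hox genes and of blood formation in zebrafish, had 10.97, 11.21 and 11.26 in EWS-FLI1 arrays, against 11.46, 11.57 and 11.39 in control arrays. The groups did not overlap, and the difference was -0.33 (SE 0.10, adjusted p = 0.0827), with a call under a trended prior only. cdx1a, which overlaps with cdx4 in posterior patterning, had 5.45, 5.73 and 5.58 in EWS-FLI1 arrays, against 5.68, 5.48 and 5.61 in control arrays, with overlapping groups and a difference of 0.00 (SE 0.10, adjusted p = 0.99). Both had means above the background reference in both groups.

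By cluster, the share of fallen probe sets was 13 of 21 in hoxb, 5 of 14 in hoxa, 4 of 16 in hoxc and 2 of 8 in hoxd. Where the mean over all arrays was above the background reference, it was 12 of 14 in hoxb, 3 of 3 in hoxa, 4 of 4 in hoxc and 1 of 2 in hoxd. The hoxb counts include hoxb6b, which fell, and hoxb6a, which was not called. Both passed the reference only through their control means. Of all tested probe sets 6.46% fell, and 8.92% of those above the reference. Over all probe sets of a cluster, the median difference was -0.54 in hoxb, -0.39 in hoxa, -0.23 in hoxc and -0.33 in hoxd. Along the axis, with borders drawn after the values were seen, 4 of 12 probe sets fell in groups 1 to 3, 12 of 23 in groups 4 to 8, 8 of 13 in groups 9 and 10 and 0 of 11 in groups 11 to 13. Those 11 all had means over all arrays within the background reference, where 2.56% of all tested probe sets fell. Spearman's rho of the difference with the paralogue number was 0.28 over all 59 hox probe sets and 0.19 over the 23 with a mean above the background reference, a description over probe sets that share arrays and in part genes.

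**Figure D3:**
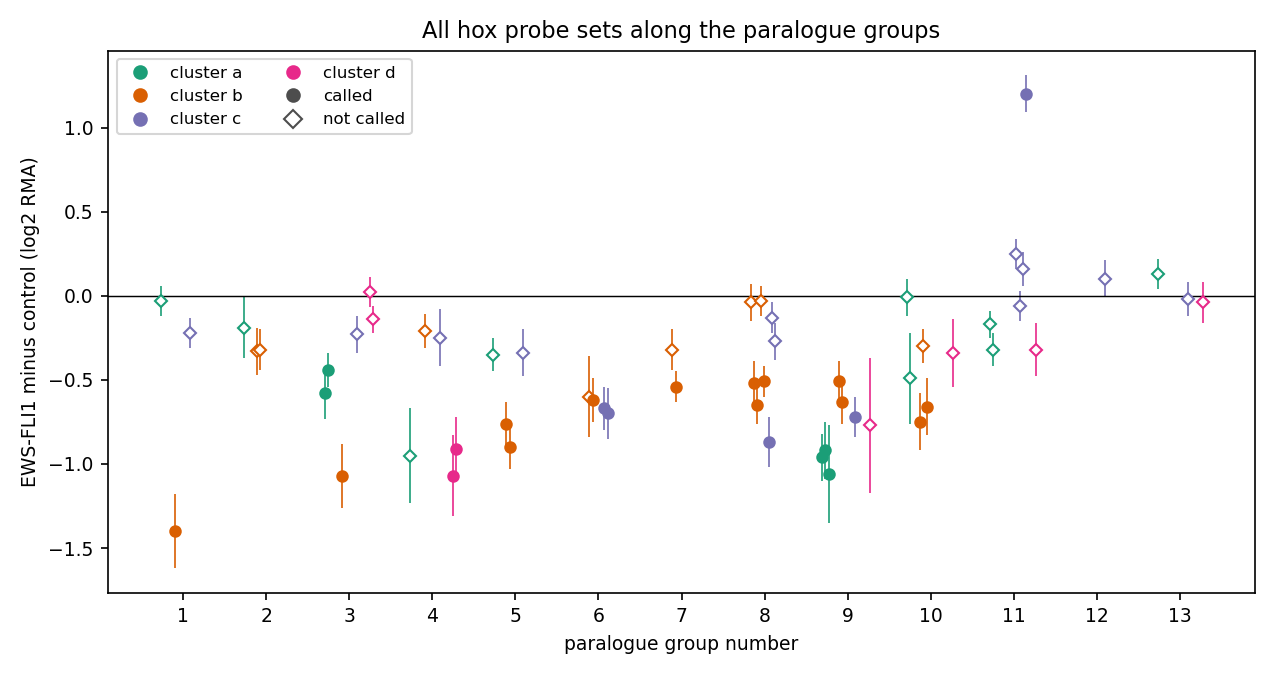
Difference (EWS-FLI1 minus control, log2 RMA, y axis) of all 59 hox probe sets by paralogue group (x axis), coloured by cluster, with bars of 1 SE from limma. Filled circles were called and open diamonds were not. Falls are found from group 1 (hoxb1a, -1.40) to group 10 (hoxb10a, -0.66 and -0.75), and the open symbols of groups 11 to 13 lie between -0.32 and 0.25.

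Duplicate copies of a gene had differences of the same sign and like size in the 6 pairs other than hoxc11. The differences of the a and the b copy were -0.92 and -1.06 for hoxa9, -0.17 and -0.32 for hoxa11, -0.76 and -0.90 for hoxb5, -0.60 and -0.62 for hoxb6, -0.65 and -0.51 for hoxb8, and -0.67 and -0.70 for hoxc6. Within arrays, the a minus b difference changed by -0.14 to 0.15 between the groups in these pairs (exact permutation p from 0.4 to 1, two-sided, and 0.7 to 1 after Benjamini-Hochberg adjustment over all 7 pairs). The smallest p that 3 against 3 arrays allow is 0.1, so these tests do not show that the copies respond alike. Both hoxa11 copies lay within the background reference, as did the EWS-FLI1 means of hoxb5a, hoxb6a and hoxb6b.

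Probe sets of 1 gene did not always move together. Of 13 genes with several probe sets, 4 fell on all (hoxa3a, hoxa9a, hoxb9a and hoxd4a), 5 on some (hoxb7a, hoxb8a, hoxb8b, hoxb10a and hoxc8a) and 4 on none. In the maker's naming, S and A mark probes for the sense and the antisense orientation of the source sequence. For 8 genes a single source sequence carried both. The S probe set fell in 4 of these (hoxb7a, hoxb8a, hoxb8b and hoxb10a), and the A probe set in none, although the A probe sets of hoxb7a and hoxb10a had an EWS-FLI1 minus control difference of -0.32 and -0.30. In 7 of the 8 the A probe set had a control mean within the background reference. Of the other A probe sets, 4 fell (hoxa9a, hoxb9a, hoxb10a and hoxc8a). For hoxc8a this was the only probe set that fell, and its S probe set was not called. Which strand these A probe sets read is not resolved here. In the RefSeq table the group 3 genes hoxa3a, hoxb3a, hoxc3a and hoxd3a overlap up to 5 neighbouring hox genes each, so which of the overlapping transcripts their probe sets read is not resolved here.

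The control arrays differed among themselves on the hox genes. Control replicate 2 was the lowest of the 3 controls on 39 of the 61 probe sets (63.9%) and control replicate 3 the highest on 40 (65.6%), against 32.7% and 40.3% of all tested probe sets. EWS-FLI1 replicate 1 was the lowest EWS-FLI1 array on 37 (60.7%, against 35.3%). Over the 24 fallen probe sets the mean value was 4.82, 5.03 and 4.99 in EWS-FLI1 replicates 1 to 3, against 5.77, 5.43 and 5.93 in control replicates 1 to 3. The lowest control was thus nearer to the EWS-FLI1 arrays, without reaching them. The number of fallen hox and cdx probe sets was 14, 32 and 20 without control replicate 1, 2 or 3. It was 9, 14 and 12 without EWS-FLI1 replicate 1, 2 or 3. Calls in either direction over all tested probe sets moved too, from 1835 with all arrays. They numbered 1366, 2309 and 1972 without control replicate 1, 2 or 3, and 883, 1106 and 973 without EWS-FLI1 replicate 1, 2 or 3.

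Of the 25 called probe sets, 10 were called whichever array was left out: hoxc11b, hoxb1a, hoxb5a, hoxb5b, hoxb7a, hoxb8b, hoxc9a, and 1 probe set each of hoxa9a, hoxb8a and hoxc8a. The other 15 lost the call without at least 1 array. hoxb3a and the second probe set of hoxa9a lost it only without EWS-FLI1 replicate 1 (adjusted p = 0.0505 and 0.0581), and hoxc6a without either EWS-FLI1 replicate 1 or EWS-FLI1 replicate 3, with an adjusted p of up to 0.0581. hoxc6b and the first probe set of hoxd4a lost it without any 1 EWS-FLI1 array (highest adjusted p = 0.0897 and 0.093). The second probe sets of hoxb9a and hoxd4a lost it without any 1 of control replicate 1, EWS-FLI1 replicate 1 and EWS-FLI1 replicate 3, with an adjusted p of up to 0.0666 and 0.0759. hoxb6b, hoxa9b and the first probe set of hoxa3a lost it without control replicate 1 or any 1 EWS-FLI1 array (highest adjusted p = 0.0717, 0.177 and 0.155). Both probe sets of hoxb10a, the shared probe set of hoxb8a, the first of hoxb9a and the second of hoxa3a lost it without any 1 array other than control replicate 2 (highest adjusted p from 0.107 to 0.158). In all of these fits the difference stayed below 0. hoxa9b also lost the call with a robust prior (adjusted p = 0.0711) and with 1 probe set per gene (adjusted p = 0.0506), and under the replicate block 1 probe set each of hoxb8a and hoxb10a lost it (adjusted p = 0.0524 and 0.0548).

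Genes that mark the stage of the embryo also changed. Of 22 measured genes of late gastrula and early somite embryos, 16 fell and 2 rose, with a median of -0.69. Their mean value was 6.12, 6.30 and 6.25 in EWS-FLI1 replicates 1 to 3, against 6.68, 6.60 and 6.90 in control replicates 1 to 3, so the 3 control arrays stood in the same order as on the fallen hox probe sets. Of 19 genes of the blastula and early gastrula, 7 fell and 1 rose, with a median of -0.26. Their mean value was 6.40, 6.45 and 6.46 in EWS-FLI1 arrays, against 6.75, 6.86 and 6.59 in control arrays. On this list control replicate 2 was the highest and control replicate 3 the lowest of the controls. The part of developmental stage in the hox differences was not tested, and fewer cells of a type and less RNA per cell cannot be told apart in pooled embryos. Over all genes, 1 probe set each, 7.12% fell and 5.65% rose.

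**Figure D4:**
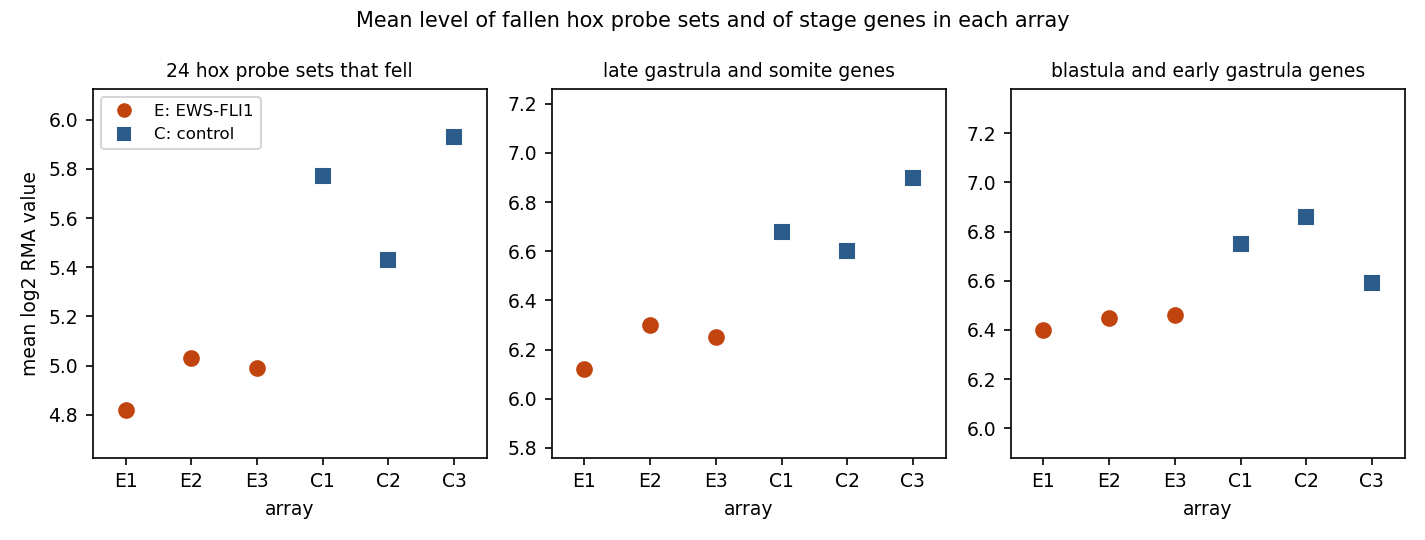
Mean log2 RMA value (y axis, each panel spanning 1.5 units and not starting at 0) in the EWS-FLI1 arrays E1 to E3 and the control arrays C1 to C3, for the 24 fallen hox probe sets, the late stage genes and the early stage genes. The fallen hox probe sets average 4.82 to 5.03 in EWS-FLI1 arrays and 5.43 to 5.93 in controls. Control replicate 3 is the highest control in the first panels and the lowest in the last.

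Markers of the germ layers were present as the label of whole embryos implies, with 7 of 8 above the background reference in at least 1 group and myod1, an early muscle gene, within it. Of the 8, 3 fell and 1 rose, with a median of -0.35. Over all genes 7.12% fell and 5.65% rose, the shares to set beside each list of this paragraph. The summed linear signal of the 8 was 2159 to 2388 in EWS-FLI1 and 2893 to 3301 in control arrays. The ectodermal genes tp63, of the epidermis, and sox2 and sox19a, of the neural plate, differed by -1.33 (SE 0.09, adjusted p = 7.7e-05), -0.87 (SE 0.09, adjusted p = 7.2e-04) and -0.65 (SE 0.11, adjusted p = 0.00618), and the mesodermal gene tbxta rose by 0.54 (SE 0.11, adjusted p = 0.0123). Other probe sets of tp63 (-0.83) and sox2 (-1.19) fell too, and a further probe set of sox2 (-0.15) was not called. Of 11 enveloping layer markers 2 fell (ppl and evpla), and their summed linear signal was 21846 to 24307 in EWS-FLI1 and 24054 to 25404 in control arrays, with cldne and evpla within the background reference. Both calls were lost without any 1 array other than control replicate 3 (highest adjusted p = 0.132 and 0.139), that of evpla also with quantile normalization (adjusted p = 0.0531) and that of ppl under the replicate block (adjusted p = 0.0515). Of 11 yolk syncytial layer markers 2 fell (apoa4b.1 and fn1a), with sums of 19084 to 19431 in EWS-FLI1 and 19167 to 21169 in control arrays and mxtx2 within the background reference. The call of apoa4b.1 was lost without any 1 EWS-FLI1 array (highest adjusted p = 0.141). That of fn1a held on its brightest probe set only, as its other probe sets (-0.30 and -0.14) were not called. RNA integrity can be read from control probe sets at both transcript ends. For GAPDH, 3' minus 5' signal was 1.1, 1.28 and 1.25 in EWS-FLI1 and 0.87, 0.69 and 0.92 in control arrays (exact permutation p = 0.1, the smallest possible). For acta1 it was -0.50, -0.36 and -0.41 in EWS-FLI1 and -0.19, -0.33 and 0.20 in control arrays (exact permutation p = 0.1), a difference of opposite sign. The part of these in the hox result was not tested.

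The TALE homeodomain proteins Meis, Pbx and Pknox bind DNA together with Hox proteins. Of 12 measured genes 3 fell, all of the Meis family, 1 rose and 8 were not called, with a median of -0.16. Over all genes 7.12% fell and 5.65% rose. The Meis genes meis1a (-0.22) and meis2a (-0.39) were among those not called. meis1b averaged 6.80 ± 0.19 in EWS-FLI1 and 7.83 ± 0.30 in control arrays (SD, n = 3 each). It fell by 1.03 (SE 0.16, adjusted p = 0.00418). meis2b fell by 0.91 (SE 0.12, adjusted p = 0.0017) and meis3 by 0.84 (SE 0.20, adjusted p = 0.0297). The meis3 call was lost without control replicate 1 or any 1 EWS-FLI1 array (highest adjusted p = 0.123). pbx3b rose, at 4.31 ± 0.10 in EWS-FLI1 and 3.48 ± 0.10 in control arrays (SD, n = 3 each), a difference of 0.83 (SE 0.09, adjusted p = 0.00106), with the control mean within the background reference.

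Retinoic acid, made by Aldh1a2 and broken down by Cyp26 enzymes, activates hox genes of the hindbrain and trunk. The list held genes of its synthesis, breakdown, binding and receptors, and the nuclear receptor gene nr2f5. Of 17 measured genes 7 fell, 1 rose and 9 were not called, with a median of -0.48. The shares over all genes were 7.12% fallen and 5.65% risen. The nuclear receptor gene nr2f5 averaged 7.58 ± 0.38 in EWS-FLI1 and 8.97 ± 0.34 in control arrays (SD, n = 3 each), and fell by 1.39 (SE 0.21, adjusted p = 0.00425). The receptor gene rarga fell by 1.16 (SE 0.18, adjusted p = 0.00435) and by 1.09 on its second probe set, and raraa fell by 0.76 (SE 0.14, adjusted p = 0.00846). cyp26a1, the main enzyme of retinoic acid breakdown in the gastrula, fell by 0.80 (SE 0.13, adjusted p = 0.00592). The synthesis gene aldh1a2 fell too, with a difference of -0.64 (SE 0.11, adjusted p = 0.00604). In the RefSeq table rarga is also a neighbour of the hoxca cluster.

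Among hindbrain segmentation genes, which set up the rhombomeres in which groups 1 to 4 are expressed, 10 of 22 fell, 3 rose and 9 were not called, with a median of -0.60. For comparison, 7.12% of all genes on the array were called lower and 5.65% higher. irx7, an Iroquois factor of the hindbrain, fell by 1.06 (SE 0.13, adjusted p = 0.00137). pax2a, of the midbrain-hindbrain boundary, fell by 1.28 (SE 0.25, adjusted p = 0.0133). The call of pax2a was lost without any 1 of control replicate 1, EWS-FLI1 replicate 1 and EWS-FLI1 replicate 3, where its adjusted p reached 0.0692. egr2b, a factor of rhombomeres 3 and 5 also known as krox20 and a member of the late stage list too, rose by 2.37 (SE 0.44, adjusted p = 0.00951), with means of 7.32 ± 0.16 in EWS-FLI1 and 4.95 ± 1.08 in control arrays (SD, n = 3 each). Its call was lost without EWS-FLI1 replicate 1 (adjusted p = 0.0534). irx3a, another Iroquois factor gene, rose by 1.28 (SE 0.19, adjusted p = 0.00328).

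The margin and tailbud are where cdx and posterior hox genes are first expressed. The list of their genes held T-box, Wnt, FGF, BMP and evx genes, the Wnt pathway genes lef1 and axin2, and the transcription factor genes msgn1, sp5a, sp5l, vent, vox and ved. Of its Wnt ligand genes only wnt5b was measured, and wnt3, wnt3a and wnt8a were not. The array measured 20 genes, of which 8 fell, 1 rose and 11 missed the threshold, with a median of -0.38. The shares over all genes were 7.12% fallen and 5.65% risen. fgf24 fell by 1.14 (SE 0.20, adjusted p = 0.00726) and fgf8a, a further FGF ligand gene, by 0.96 (SE 0.11, adjusted p = 0.00122). tbxta, the T-box gene no tail of the notochord and margin, was the one that rose, by 0.54 (SE 0.11, adjusted p = 0.0123). The T-box genes tbx16l and tbx6 fell by 0.97 (SE 0.17, adjusted p = 0.00789) and 0.84 (SE 0.14, adjusted p = 0.00507). Of 23 Polycomb and Trithorax genes, which keep hox genes silent or active, 2 fell (8.7%, near the 7.12% of all genes) and 21 were not called, with a median of -0.10. Both were bmi1 genes, of Polycomb repressive complex 1: bmi1a fell by 0.68 (SE 0.11, adjusted p = 0.00547) and bmi1b by 0.41 (SE 0.11, adjusted p = 0.0477). The call of bmi1b was lost under the replicate block, under a trended prior and without any 1 array other than control replicate 2 (highest adjusted p = 0.18).

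Genes beside the clusters were called in both directions. Among the 3 nearest measured genes on each side of the 7 clusters, 42 in all, 6 fell, 5 rose and 31 were not called, with a median of 0.04, against 7.12% fallen and 5.65% risen over all genes. The 6 were rarga (-1.16), igf2bp1 (-0.88), copz2 (-0.81), snx10a (-0.58), nfe2l2a (-0.49) and zeb1b (-0.34). The 5 were lnpa (0.75), atp5mc3a (0.59), calcoco1a (0.52), atp5mc1 (0.44) and hibadhb (0.34). Of these 11 calls 5 were lost when 1 array was left out: nfe2l2a without any 1 of 3 arrays (control replicate 1, EWS-FLI1 replicate 2 and EWS-FLI1 replicate 3, highest adjusted p = 0.0921), hibadhb and lnpa without any 1 array other than control replicate 3 (0.152 and 0.123), and atp5mc1 and zeb1b without any 1 array other than control replicate 2 (0.116 and 0.157). Under the replicate block hibadhb (adjusted p = 0.101), atp5mc1 (adjusted p = 0.0523) and zeb1b (adjusted p = 0.0842) lost it, and hibadhb did so with a trended prior (adjusted p = 0.0533). Of the even-skipped genes that adjoin the group 13 ends, eve1 next to hoxba differed by -0.23 (SE 0.22, adjusted p = 0.606), evx1 next to hoxaa by 0.03 (SE 0.13) and evx2 next to hoxda by 0.10 (SE 0.10), and evx1 and evx2 lay within the background reference.

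**Figure D5:**
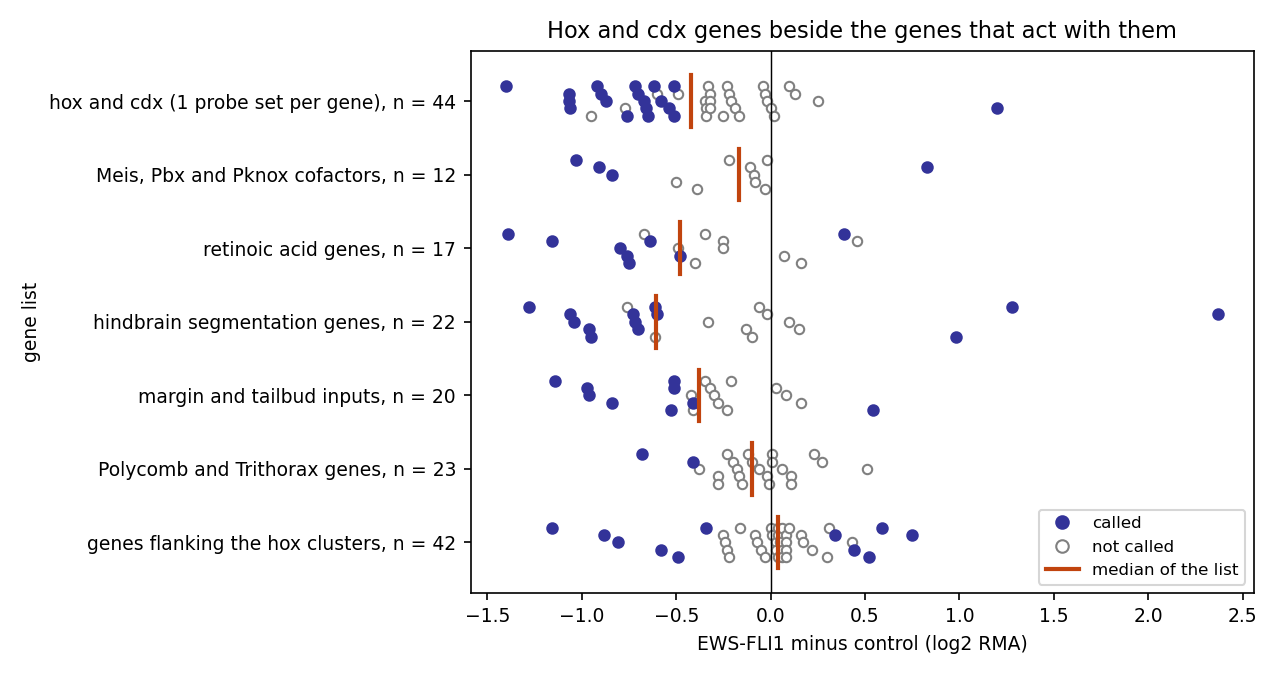
Difference (EWS-FLI1 minus control, log2 RMA, x axis) of each gene of the lists, 1 probe set per gene, with called genes filled and the list median as a bar. The medians are -0.42 for the 44 hox and cdx genes, -0.16 for cofactors, -0.48 for retinoic acid, -0.60 for hindbrain segmentation, -0.38 for margin and tailbud, -0.10 for Polycomb and Trithorax and 0.04 for the genes that flank the clusters.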

How the data were processed

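RNA from pools of whole zebrafish embryos was read on 6 Affymetrix arrays, 3 per group. The deposited values are RMA values, taken here as log2, made by the authors with the affy package under R 2.2.0 per the submitters' processing notes, and given to 2 decimals. That base rests on the range of the values, 1.58 to 13.46, since no source names it. RMA subtracts background, makes the distributions of arrays equal and summarizes probes, which shrinks differences between dim probe sets' values.

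The table holds 15617 probe sets, 115 of them the manufacturer's controls, which entered no test. Symbols came from the platform annotation, updated by Entrez identifier through a RefSeq gene table of assembly GRCz12tu, which matched 10711 of the 10795 probe sets with 1 gene; 135 had several genes and 4572 none. That table was also used for neighbouring genes. Promoter sequences were not used here. Members and gene lists were chosen with earlier results of these data known, so no list is independent evidence of its direction.

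Group means were fitted with limma 3.58.1 (lmFit and eBayes, R 4.3.3), EWS-FLI1 minus control, two-sided, with Benjamini-Hochberg adjustment over all 15502 probe sets. The fit was tested on simulated data. For a gene, the probe set with the highest mean over all arrays was used where 1 was needed. Named were all called members, the largest uncalled member of each cluster with the duplicate copies, and per list the called genes with the largest differences. aldh1a2 was named in addition, as the counterpart of cyp26a1. Summed signals are on the linear scale. Replicate numbers are shared between the groups. Deviations of same-numbered arrays correlated at -0.08, -0.10 and -0.08, which shows no sign of pairing. With 3 arrays a group this cannot settle whether the numbers pair the arrays. Alternatives were array centring, quantile normalization, leaving out dim probe sets, the replicate block, trended and robust priors, array weights, 1 probe set per gene, a stricter threshold and leaving out each array.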

Additional observations from a re-analysis of the deposited data

How the results depend on the processing

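The hox result kept its direction in all 15 alternatives, and no member changed sign while called. The direction could change only with array centring, quantile normalization, array weights or an array left out. The other alternatives leave each difference as it is and change only which probe sets are tested or called. Of the 25 called probe sets, 10 kept the call in every alternative that left an array out, and 3 lost it in at least 1 of the 8 other settings with all arrays at the threshold of 0.05. In these settings 16 of the 25 had a value in each, 5 had none with dim probe sets left out and 6 had none with 1 probe set per gene. Of those not called, 10 members gained a call in some alternative. Leaving out 1 array gave 10 to 33 called members, 9 to 32 that fell and a median of -0.47 to -0.22, with 883 to 2309 called probe sets in all; the count that fell was lowest without EWS-FLI1 replicate 1 and highest without control replicate 2. With an adjusted p under 0.01, 11 members were called, 10 fell, and 826 of all probe sets were called. With 1 probe set per gene 1132 probe sets were called in all, since fewer were tested. With dim probe sets left out the median of the members left was -0.66, as members near background were dropped. Whether the replicate numbers pair the arrays is not known. With them as a block, 24 members were called, 23 fell, 1576 of all probe sets were called and the median was -0.34. Signal over background limits the members of groups 11 to 13, the other genes with a control mean under 4.23, and the size of the hoxc11b difference. It also limits the size of the falls of hoxb5a, hoxb6b and the second probe set of hoxd4a. Their EWS-FLI1 means were 3.77, 4.21 and 3.69.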
